A study of Mus musculus with 6 samples.

Results

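The genes described here mark cells other than satellite cells (SCs) that live in skeletal muscle, and their levels serve as a measure of the purity of the SC cultures. There were 8 of them among the 55416 genes of the table, each taken as the row with its name. *Pecam1*, *Cdh5*, *Kdr* and *Egfl7* mark endothelial cells, *Ptprc*, *Adgre1* and *Csf1r* mark leukocytes and macrophages, and *Sox10* marks Schwann cells, the glia of peripheral nerve. RNA was sequenced from 6 libraries of mouse SCs, the stem cells of skeletal muscle, after 4 days of growth without treatment. WT SCs gave 3 libraries, and SCs of mice with a systemic knockout of *Ltf* (*Ltf*-KO), which encodes the secreted iron-binding glycoprotein lactoferrin, gave the other 3. The knockout was made by CRISPR-Cas9 in C57/BL6N zygotes, with guides in introns 2 and 8, and removed the exons between them from every tissue, so muscle fibres and blood cells of the donor mice lacked the gene as well. The mice were 8 to 10 weeks old unless specified otherwise. Cells of the hind leg muscles were stained with antibodies to CD31, CD45, Sca1 and α7-integrin, and the gate given for the sort was Sca1-/CD11b-/CD34+/α7-integrin+. The sorted cells of both genotypes were grown on Matrigel in medium with fetal bovine serum, chick embryo extract and basic fibroblast growth factor. CD31 is the product of *Pecam1* and CD45 that of *Ptprc*, so the protein of 2 of the marker genes was stained on the cells that founded the cultures. The labels do not say whether the libraries came from separate mice or cultures, and p-values measure the spread between these libraries, which may be technical.

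Values are in TPM, a transcript abundance that is corrected for gene length and set to a common total per library, so that levels can be compared between genes. The libraries summed to between 993650 and 994356 TPM and held 12828 to 12951 genes at 1 TPM or more. TPM does not keep the depth of a library, which is unknown here. The targeted gene, *Ltf*, was listed at 0.12, 0.02 and 0.02 TPM in WT SCs and at 0.02, 0.03 and 0 TPM in *Ltf*-KO SCs, so its level does not check the genotype labels. Genes of the SC lineage were abundant in all 6 libraries. *Myod1*, the myogenic transcription factor of activated SCs, had the highest mean of those examined, at 778 ± 34.6 TPM in WT and 780 ± 30.1 TPM in *Ltf*-KO SCs (SD, n = 3 each). *Pax7*, the transcription factor that defines SCs, was at 41.0 ± 1.72 and 39.6 ± 3.38 TPM (SD, n = 3 each). *Itga7*, which encodes the integrin of the gate, was at 380 ± 13.2 and 388 ± 24.2 TPM (SD, n = 3 each). *Cd34*, also in the gate, was lower, at 5.74, 6.03 and 6.12 TPM in WT and 6.20, 5.69 and 4.41 TPM in *Ltf*-KO SCs. The gated-out antigens were low: *Ly6a*, which encodes Sca1, lay between 1.33 and 3.21 TPM, and *Itgam*, which encodes CD11b, between 0 and 0.07 TPM. The means of the 8 marker genes were all under those of *Pax7*, *Myod1* and *Itga7*.

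Endothelial cells line the vessels that run along every muscle fibre. They hold together through the adhesion molecules CD31 and VE-cadherin and respond to vascular endothelial growth factor (VEGF) through receptors such as VEGFR2. Macrophages depend on the receptor that *Csf1r* encodes, which binds the cytokines CSF1 and IL-34, and leukocytes of all kinds carry the phosphatase CD45. Schwann cells wrap the motor axons, and *Sox10* acts with *Egr2* on the genes of their myelin. In GENCODE M21 on GRCm38 the 8 are protein-coding genes on separate chromosomes: *Pecam1* (ENSMUSG00000020717) on 11, *Cdh5* (ENSMUSG00000031871) on 8, *Kdr* (ENSMUSG00000062960) on 5, *Egfl7* (ENSMUSG00000026921) on 2, *Ptprc* (ENSMUSG00000026395) on 1, *Adgre1* (ENSMUSG00000004730) on 17, *Csf1r* (ENSMUSG00000024621) on 18 and *Sox10* (ENSMUSG00000033006) on 15. The cell types they mark share the muscle with SCs and are released by the same digestion. In bulk RNA, fewer cells of a type and less RNA per cell cannot be told apart, and neither can expression of a marker by the myogenic cells themselves.

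Among the marker genes, *Egfl7* came nearest to a difference between the genotypes, and its locus shows what its gene-level value pools. *Egfl7* encodes a secreted protein of the vessel wall. Its RefSeq entry has 3 start sites, and the table gives 1 value for the gene. The windows from 250 bases before to 50 bases after each start are printed here in RefSeq's GRCm38.p6 sequence, 5′ to 3′ on the strand of the gene, because they differ in composition and motif content. Capitals mark each copy of GGAAGT or its reverse complement ACTTCC, the core that ETS transcription factors bind, many of which act in endothelial cells.
Egfl7 start 1, chr2:26580833-26581132, plus strand: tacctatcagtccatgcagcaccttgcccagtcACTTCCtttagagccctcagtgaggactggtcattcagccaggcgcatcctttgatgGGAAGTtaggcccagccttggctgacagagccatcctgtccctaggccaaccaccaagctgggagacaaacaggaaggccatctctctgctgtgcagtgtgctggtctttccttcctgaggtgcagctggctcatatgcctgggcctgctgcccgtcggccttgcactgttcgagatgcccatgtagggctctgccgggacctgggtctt
Egfl7 start 2, chr2:26583615-26583914, plus strand: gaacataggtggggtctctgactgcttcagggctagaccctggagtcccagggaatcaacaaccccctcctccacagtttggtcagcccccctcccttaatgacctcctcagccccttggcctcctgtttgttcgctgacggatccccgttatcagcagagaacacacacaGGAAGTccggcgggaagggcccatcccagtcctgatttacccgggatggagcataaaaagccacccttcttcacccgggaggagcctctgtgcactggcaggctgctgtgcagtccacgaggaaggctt
Egfl7 start 3, chr2:26586386-26586685, plus strand: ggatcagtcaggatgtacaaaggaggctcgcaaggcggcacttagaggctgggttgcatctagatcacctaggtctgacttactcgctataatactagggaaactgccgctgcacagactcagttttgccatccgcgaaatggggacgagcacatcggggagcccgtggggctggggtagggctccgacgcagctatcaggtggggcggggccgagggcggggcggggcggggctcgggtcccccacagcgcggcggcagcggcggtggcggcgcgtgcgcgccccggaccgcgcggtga
The upstream window held 2 copies, the middle window 1 and the downstream window 0. The same letters on either strand occurred in 23.8% of all 32851 promoter windows, so a copy is common in promoters of any kind. The downstream window was also the richest in G and C, at 67.3%, against 58.3% and 59.0% for the others and a median of 52.7% over all windows. *Kdr* has 1 window in that set, with 1 copy, and *Ptprc* has 2 overlapping windows, with 2 copies and 1 copy. The longer motif GAGGAAGT, bound by the ETS factor PU.1 of blood cells and present in 3.20% of all windows, and its reverse complement were found in 0 of these 6 windows. Only windows of these 3 of the 8 genes were examined. The motif counts therefore do not cover the promoters of the other marker genes, *Csf1r* among them. An intron of *Egfl7* also carries the gene of miR-126, a microRNA of endothelial cells. Its mature sequence is shown with the seed, bases 2 to 8, in capitals, since it comes from the same locus.
mmu-miR-126a-3p, chr2:26591402-26591423, plus strand: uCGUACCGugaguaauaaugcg
The annotated genes *Mir126a* and *Mir126b* were listed at 0 in all 6 libraries, where their host gene was above 1 TPM in each. Whether the libraries hold RNA as short as a microRNA is not stated, so these values do not show that miR-126 was absent.

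The 4 endothelial genes were present at a few TPM in all 6 libraries. *Egfl7* was at 2.32, 1.91 and 3.30 TPM in WT SCs and at 5.74, 4.61 and 3.29 TPM in *Ltf*-KO SCs. WT replicate 3 and *Ltf*-KO replicate 3 met at the same level, and *Ltf*-KO replicates 1 and 2 stood above every WT library. *Cdh5*, which encodes VE-cadherin, was at 2.09, 1.98 and 4.59 TPM in WT SCs and at 4.11, 4.97 and 1.79 TPM in *Ltf*-KO SCs. Its lowest library and its highest were both *Ltf*-KO, and the genotypes overlapped fully. *Pecam1* was at 1.41, 1.02 and 2.71 TPM in WT SCs and at 1.85, 2.43 and 1.06 TPM in *Ltf*-KO SCs. As with *Cdh5*, WT replicate 3 was high among the WT libraries and *Ltf*-KO replicate 3 low among the *Ltf*-KO libraries. *Kdr*, which encodes VEGFR2, varied least, at 1.35, 1.51 and 1.83 TPM in WT SCs and at 1.31, 1.64 and 1.44 TPM in *Ltf*-KO SCs. WT replicate 3 was again the highest of the WT libraries.

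*Sox10* was the most abundant of the 8 genes. It was at 2.99, 4.14 and 6.62 TPM in WT SCs and at 5.26, 5.66 and 3.38 TPM in *Ltf*-KO SCs. The WT libraries spanned the whole range of the *Ltf*-KO libraries, with WT replicate 3 highest and WT replicate 1 lowest.

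The 3 immune genes were close to 0 in every library. *Csf1r* was at 0.39, 0.05 and 0.06 TPM in WT SCs and at 0.09, 0.08 and 0.09 TPM in *Ltf*-KO SCs. *Ptprc* was at 0.16, 0.07 and 0.04 TPM in WT SCs and at 0.05, 0.09 and 0 TPM in *Ltf*-KO SCs. *Adgre1*, which encodes the macrophage antigen F4/80, was listed above 0 in 2 libraries, at 0.08 TPM in WT replicate 1 and at 0.04 TPM in *Ltf*-KO replicate 2. WT replicate 1 was the highest library for all 3 genes. Among the other 5 libraries, those of WT lay under those of *Ltf*-KO for *Csf1r*, and the genotypes still overlapped for *Ptprc* and *Adgre1*.

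**Figure D1:**
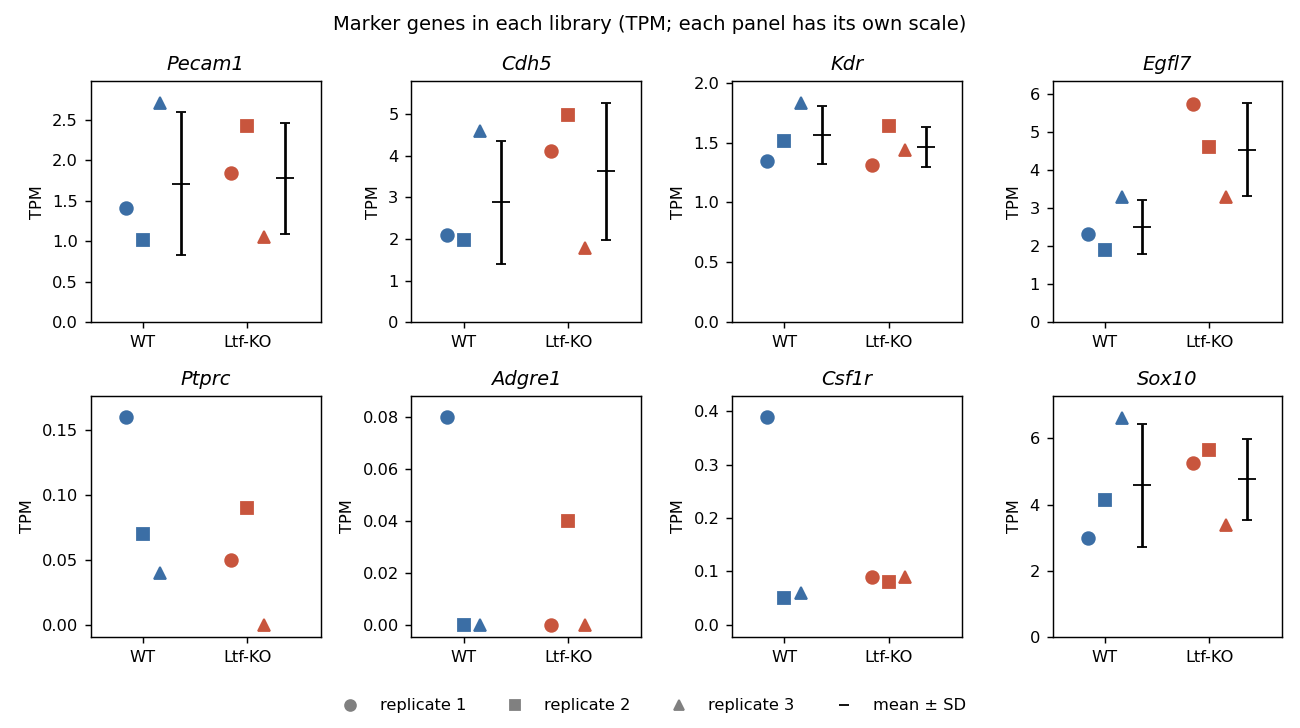
TPM of each marker gene in the 3 WT libraries (blue) and the 3 *Ltf*-KO libraries (red), with a symbol for each replicate number and, for the 5 genes at a mean of 1 TPM or more, the mean ± SD in black. The panels have their own scales; WT and *Ltf*-KO points overlap in all 8, and the immune genes stay under 0.4 TPM.

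Ordered by their mean over the 6 libraries, *Sox10* was at 4.67 TPM, *Egfl7* at 3.53, *Cdh5* at 3.25, *Pecam1* at 1.75, *Kdr* at 1.51, *Csf1r* at 0.127, *Ptprc* at 0.0683 and *Adgre1* at 0.02 TPM. The ranges of neighbours in this order overlapped except between *Kdr* and *Csf1r*, where the mean fell by a factor of 11.9 and *Kdr* was higher in 6 of 6 libraries. *Cdh5* was also above *Pecam1* in 6 of 6 libraries, and *Sox10* above *Egfl7* in 5 of 6. *Egfl7* and *Cdh5* could not be ranked, with *Egfl7* the higher in 3 of 6 libraries. By mean TPM *Sox10* stood at percentile 81.9 of all 55416 genes and *Kdr*, the lowest of the 5 upper genes, at percentile 78.0. Only 26553 of the 55416 genes were above 0 in any library, and 23.4% reached a mean of 1 TPM. These percentiles therefore count many genes at 0, and *Kdr* lay low among the genes that reached 1 TPM.

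Set beside the SC genes, the upper markers were small. The mean of *Pax7* was 8.63 times that of *Sox10*, 11.4 times that of *Egfl7*, 12.4 times that of *Cdh5*, 23.1 times that of *Pecam1* and 26.6 times that of *Kdr*. Within single libraries the ratio of *Pax7* to *Cdh5* ran from 8.52 to 20.98 and that of *Pax7* to *Kdr* from 21.4 to 31.4. *Myod1* exceeded *Sox10* by a factor of 167 and *Kdr* by a factor of 515. For the immune genes the distance was greater still, with *Pax7* at 318 times the mean of *Csf1r* and *Myod1* at 6150 times. No share of cells can be read from these ratios, since the RNA of each cell type was not measured alone.

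**Figure D2:**
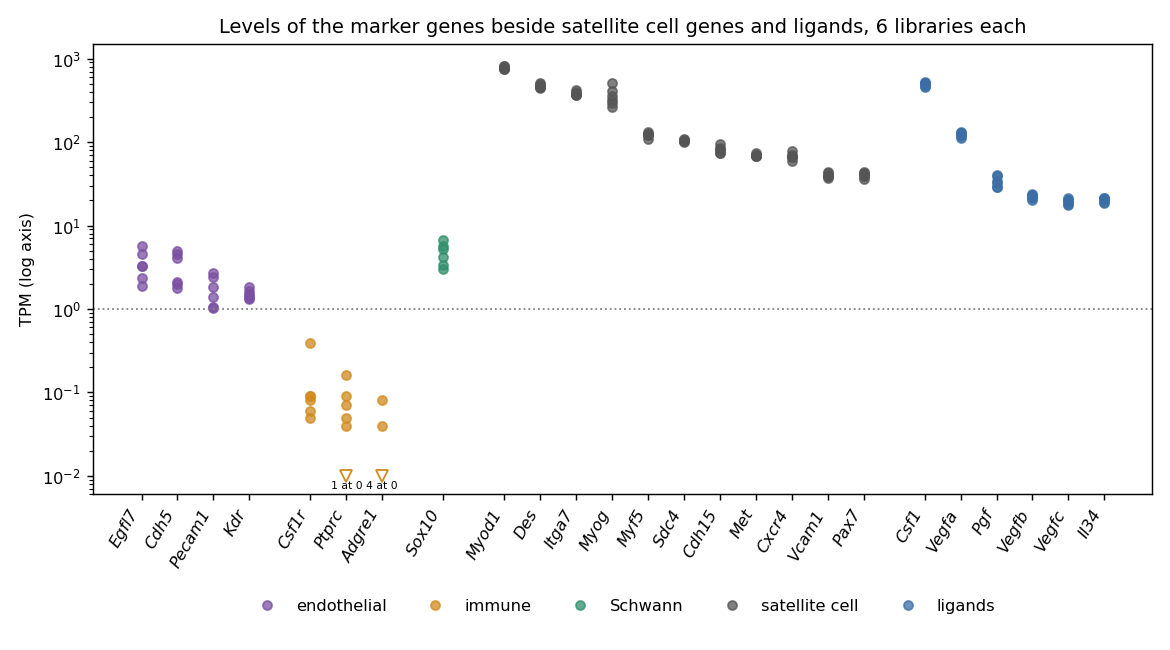
TPM on a log axis of the 8 marker genes, 11 genes of the SC lineage and 6 ligands, with a point for each of the 6 libraries and the dotted line at 1 TPM. Triangles at the foot stand for libraries listed at 0; the endothelial genes and *Sox10* lie between 1.02 and 6.62 TPM, the immune genes under 0.4 TPM, and the SC genes at 36.6 TPM or more.

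*Ltf*-KO was compared with WT by limma on log2(TPM + 1) for the 12956 genes whose mean reached 1 TPM, with Benjamini-Hochberg adjustment over all of them. The added 1 makes fold changes of genes at a few TPM smaller than they are. Of the 8 marker genes, 5 passed that filter, and 0 of the 5 had an adjusted p under 0.05, against 0% of all genes tested. *Egfl7* was the only marker gene at an unadjusted p under 0.05. Its mean was 2.51 ± 0.714 TPM in WT and 4.55 ± 1.23 TPM in *Ltf*-KO SCs (SD, n = 3 each), a ratio of 1.81. On the log2 scale the difference was 0.66 with an SE of 0.22 and a 95% interval from 0.14 to 1.17, with an unadjusted limma p of 0.0204 and an adjusted p of 0.999. Across all genes tested, 2.01% were higher in *Ltf*-KO SCs at that unadjusted threshold and 3.78% differed in either direction. With 1 library left out at a time, the log2 difference of *Egfl7* stayed between 0.50 and 0.83. Its unadjusted limma p was 0.0611 without WT replicate 1, 0.0683 without WT replicate 2, 0.0701 without *Ltf*-KO replicate 1 and 0.0591 without *Ltf*-KO replicate 2, so each of these libraries was needed to reach the threshold. The body of *Egfl7* overlaps *Agpat2* on the opposite strand in GENCODE M21, a gene at 10.7 to 12.3 TPM here. Without strand in the counting, which was not stated, reads from the stretch they share cannot be told apart. Whether their exons overlap was not examined. *Agpat2* was highest in WT replicate 1.

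The other 4 genes that could be tested had intervals that spanned 0. *Cdh5* averaged 2.89 ± 1.48 TPM in WT and 3.62 ± 1.64 TPM in *Ltf*-KO SCs (SD, n = 3 each), a log2 difference of 0.24 with a 95% interval from -0.62 to 1.11. *Pecam1* averaged 1.71 ± 0.885 and 1.78 ± 0.688 TPM (SD, n = 3 each), a log2 difference of 0.05 with an interval from -0.64 to 0.75. *Sox10* averaged 4.58 ± 1.86 and 4.77 ± 1.22 TPM (SD, n = 3 each), a log2 difference of 0.07 with an interval from -0.57 to 0.72. All 3 intervals include a log2 difference of 0.66, that of *Egfl7*. *Kdr* was the best determined, at 1.56 ± 0.244 and 1.46 ± 0.166 TPM (SD, n = 3 each), with a log2 difference of -0.06 and an interval from -0.40 to 0.29. The unadjusted limma p-values were 0.525 for *Cdh5*, 0.862 for *Pecam1*, 0.790 for *Sox10* and 0.715 for *Kdr*, each with an adjusted p of 0.999. In 0 of the 5 genes did the genotypes fail to overlap, against 8.46% of all genes tested.

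The 3 immune genes were under the filter and were compared by a two-sided exact permutation test of the mean TPM over the 20 relabellings of the libraries, which cannot give a p under 0.1. The exact permutation p was 0.5 for *Ptprc* and 1 for both *Adgre1* and *Csf1r*. The means of *Ptprc* differed by -0.0433 TPM (*Ltf*-KO minus WT), those of *Csf1r* by -0.08 TPM and those of *Adgre1* by -0.0133 TPM. Without WT replicate 1 the difference for *Csf1r* turned to 0.0317 TPM and that for *Adgre1* to 0.0133 TPM. *Csf1r* overlaps *Hmgxb3* on the opposite strand, which was at 21.3 to 23.0 TPM, so its trace level carries the same limit as that of *Egfl7*.

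**Figure D3:**
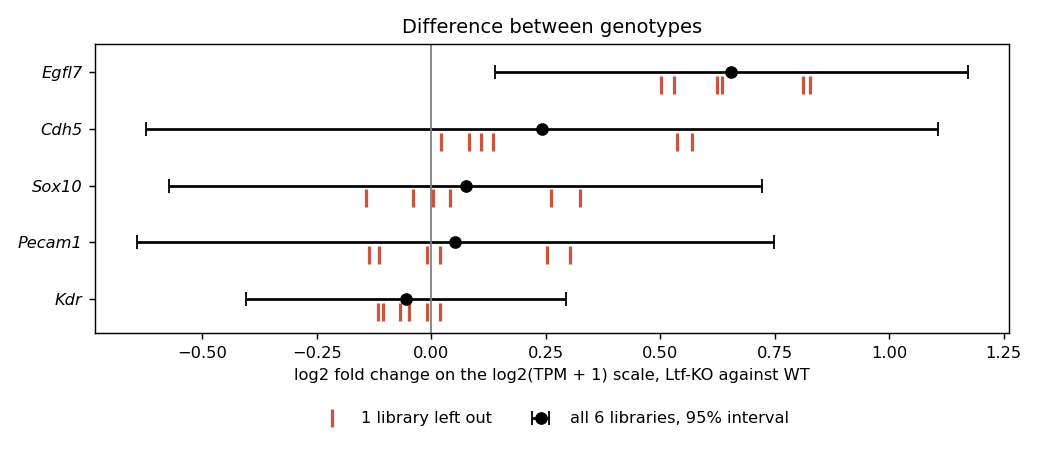
Difference between *Ltf*-KO and WT on the log2(TPM + 1) scale for the 5 marker genes at a mean of 1 TPM or more. Black points and bars give the limma estimate from all 6 libraries with its 95% interval, and red ticks the estimates with each library left out; the interval of *Egfl7* runs from 0.14 to 1.17 and those of the other 4 genes span 0.

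Except for *Kdr*, the marker genes at 1 TPM or more differed more between libraries of the same genotype than most genes at their level. The SD of log2(TPM + 1) within genotypes was 0.55 for *Cdh5*, 0.41 for *Pecam1*, 0.40 for *Sox10* and 0.31 for *Egfl7*, against a median of 0.17 over the 4884 genes with a mean of 1 to 10 TPM. These values lay at percentiles 91.5, 87.6, 87.1 and 79.4 of those genes. *Kdr* stood apart, with an SD of 0.12 at percentile 29.0.

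The spread had a shape that several of the genes shared. WT replicate 3 was the highest of the WT libraries for 5 of the 5 marker genes at 1 TPM or more, against 35.3% of all genes tested. *Ltf*-KO replicate 3 was the lowest of the *Ltf*-KO libraries for 4 of the 5, against 37.5% of all genes tested, with *Kdr* the exception. Over the 6 libraries, log2(TPM + 1) of *Pecam1* and *Cdh5* had a Pearson correlation of 0.95, of *Cdh5* and *Sox10* 0.91, and of *Pecam1* and *Sox10* 0.84. The value was 0.72 for *Cdh5* and *Egfl7*, and -0.06 for *Kdr* and *Egfl7*. These are descriptions over 6 libraries whose values share a scaling, and so few points fix a correlation poorly. Between 23 and 83 of the 12956 genes tested correlated above 0.95 with each of the 5 marker genes.

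The genes whose pattern over the 6 libraries was most like that of each marker gene were found by the same correlation. For *Cdh5* they were *Foxd3* (0.992), *Grem1* (0.989) and *Pde8a* (0.989), and for *Sox10* they were *P3h2* (0.992), *Cdh19* (0.990) and *Zfp61* (0.985). *Foxd3* and *Cdh19* are themselves in the list of Schwann cell genes described next, so a gene of that list ranked among the nearest for both. For *Pecam1* they were *Nr4a1* (0.996), *Tmsb4x* (0.994) and *Stxbp5* (0.994). For *Kdr* they were *Inpp4a* (0.995), *Wdr73* (0.992) and *Car13* (0.990), and for *Egfl7* they were *Ftx* (0.996), *Ltbr* (0.984) and *Ereg* (0.984). No gene was among the nearest 3 of more than 1 marker gene.

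Wider lists of cell type genes, which include the 8, gave the setting. The endothelial list held 26 genes, of which 10 passed the filter, 14 stayed under 1 TPM in every library and 0 were at 0 throughout. *Egfl7* was the 1 gene of the 10 at an unadjusted p under 0.05, against 3.78% of all genes tested. The log2 difference was above 0 for 7 of the 10, with a median of 0.12. Over all genes tested it was above 0 for 7220 of 12956, with a median of 0.01. *Eng*, a co-receptor for TGF-β ligands, was the most abundant, at 5.55, 7.4 and 10.6 TPM in WT and 9.79, 9.06 and 6.74 TPM in *Ltf*-KO SCs. *Emcn*, a sialomucin of capillaries and veins, was at 2.15, 0.82 and 4.52 TPM in WT and 3.47, 3.46 and 1.18 TPM in *Ltf*-KO SCs. *Plvap*, a protein of endothelial fenestrae, was at 1.27, 0.38 and 1.79 TPM in WT and 1.51, 2.07 and 0.76 TPM in *Ltf*-KO SCs. Both share with *Cdh5* the order at 3 places, with WT replicate 2 the lowest and WT replicate 3 the highest of the WT libraries and *Ltf*-KO replicate 3 the lowest of the *Ltf*-KO libraries. *Vwf*, the clotting factor of endothelial granules, was at 2.71 ± 0.915 TPM in WT and 1.997 ± 0.212 TPM in *Ltf*-KO SCs (SD, n = 3 each). Its unadjusted limma p was 0.197 and its adjusted p 0.999. *Prox1*, a transcription factor of lymphatic endothelium, was at 2.31 to 2.36 TPM in WT and 2.44 to 2.77 TPM in *Ltf*-KO SCs, and WT replicate 3 was its lowest library. It was the 1 gene of the 10 that did not overlap between genotypes, against 8.46% of all genes tested. Its unadjusted limma p was 0.386 and its adjusted p 0.999. *Lyve1*, another lymphatic gene, was at 0 to 0.12 TPM.

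Summed over the 26 genes, the endothelial list came to 26.0, 22.9 and 45.9 TPM in WT SCs and to 40.3, 41.7 and 24.0 TPM in *Ltf*-KO SCs. The highest sum and the lowest were both WT, and the *Ltf*-KO to WT ratio of the means was 1.12, which ran from 0.983 to 1.45 with 1 library left out. WT replicate 3 was the highest library for 15 of the 26 genes, *Ltf*-KO replicate 2 for 8 and *Ltf*-KO replicate 1 for 3. WT replicates 1 and 2 and *Ltf*-KO replicate 3 were the highest for 0 of them. WT replicate 3 was the highest library for 15.8% of all genes at a mean of 1 TPM or more and for 15.2% of those above 0 and under 1 TPM. Without the endothelial marker genes, its counts in the list at these levels were 4 of 6 and 9 of 16. *Myog*, which turns on as myoblasts leave the cell cycle and differentiate, ran the other way at the extremes. It was at 293 TPM in WT replicate 3 and 266 TPM in *Ltf*-KO replicate 2, its lowest libraries, and at 508 TPM in *Ltf*-KO replicate 3 and 410 TPM in WT replicate 2, its highest. Its part in the levels of the endothelial genes was not tested. *Itga7* and *Cdh15* had the same highest 2 and lowest 2 libraries as *Myog*, while *Pax7* and *Myod1* did not.

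The Schwann list held 17 genes, of which 12 passed the filter. *Drp2*, a dystrophin-related protein of the myelinating Schwann cell, gave 33.3% of its summed TPM and was nearly level, at 31.3 ± 1.16 TPM in WT and 31.1 ± 1.37 TPM in *Ltf*-KO SCs (SD, n = 3 each). *Fabp7*, a fatty acid carrier of immature glia, was at 16.1 ± 0.259 and 13.9 ± 3.94 TPM (SD, n = 3 each). *Ngfr*, the low-affinity neurotrophin receptor, which myoblasts also express, was at 12.6 ± 3.08 and 14.0 ± 3.13 TPM (SD, n = 3 each). *Erbb3*, the neuregulin receptor, was at 7.34 ± 1.18 and 7.71 ± 0.920 TPM (SD, n = 3 each). *Egr2*, the partner of *Sox10* in myelination and also an immediate early gene, was the 1 gene of the list at an unadjusted p under 0.05. It was at 3.99, 3.49 and 3.89 TPM in WT and 5.54, 5.78 and 3.98 TPM in *Ltf*-KO SCs, a log2 difference of 0.34 with an SE of 0.14. Its unadjusted limma p was 0.048 and its adjusted p 0.999, and the unadjusted limma p ran from 0.00397 to 0.145 over the alternatives tried. As for *Egfl7*, *Ltf*-KO replicate 3 lay within the WT range and the other *Ltf*-KO libraries above it. The log2 difference was above 0 for 9 of the 12 genes, with a median of 0.11, beside 7220 of 12956 and 0.01 over all genes tested, and *Gfap* was listed at 0 in all libraries. *Mag*, a myelin adhesion protein named after its values were seen, was at 2.09 TPM in *Ltf*-KO replicate 1 and at 0.04 to 0.22 TPM in the other libraries. The list summed to 82.9, 93.1 and 100.4 TPM in WT SCs and to 94.6, 105 and 85.9 TPM in *Ltf*-KO SCs. WT replicate 3 was the highest WT library for 9 of the 12 tested genes, and *Ltf*-KO replicate 3 the lowest *Ltf*-KO library for 10 of the 12, against 35.3% and 37.5% of all genes tested. Without *Sox10* the counts were 8 of 11 and 9 of 11. In other lists the same places were held by 10 and 11 of the 14 tested ligands and partners described further on. They were held by 2 and 3 of 3 tested fibroblast genes and by 3 and 4 of 4 tested macrophage genes. The numbers were 3 and 5 of 10 SC genes, and 0 and 0 of 2 tested genes of pericytes and smooth muscle. For the 1 tested neutrophil gene they were 1 and 0.

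**Figure D4:**
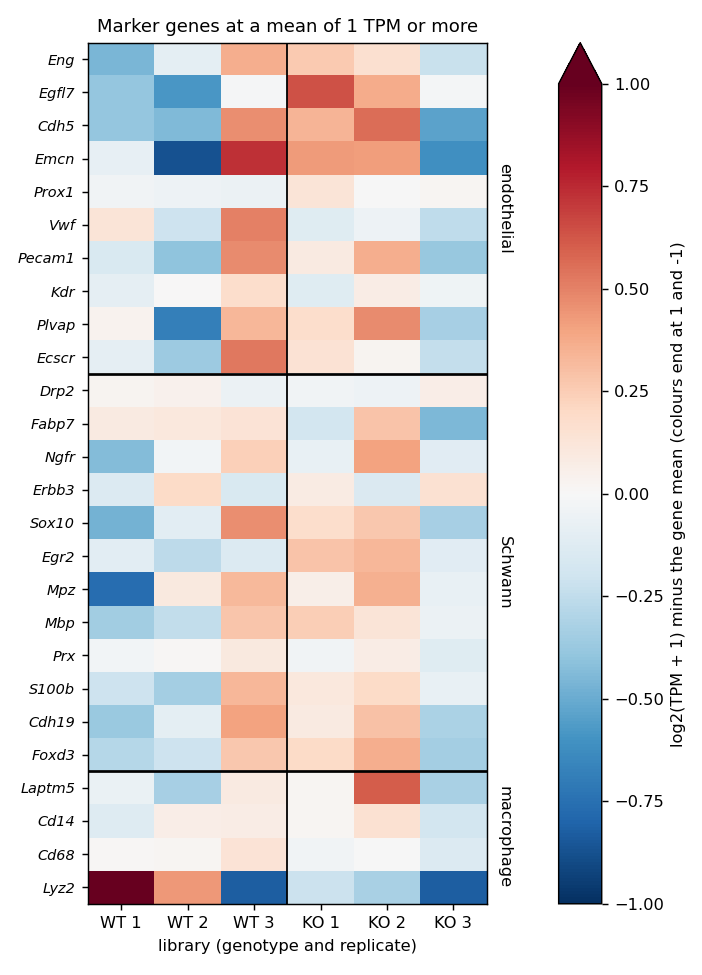
log2(TPM + 1) minus the mean of the gene over the 6 libraries, for the endothelial, Schwann and macrophage list genes at a mean of 1 TPM or more, with libraries in columns. Red is above and blue below the mean of the gene, and colours end at 1 and -1. WT replicate 3 is the highest WT column for 9 of 10 endothelial and 9 of 12 Schwann genes. *Ltf*-KO replicate 3 is the lowest *Ltf*-KO column for 8 of 10 and 10 of 12. Without the marker genes these counts are 5 of 6 and 8 of 11 for WT replicate 3, and 5 of 6 and 9 of 11 for *Ltf*-KO replicate 3.

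The macrophage and leukocyte list held 23 genes, of which 4 passed the filter, 16 stayed under 1 TPM in every library and 1, *Aif1*, was at 0 in all. *Laptm5*, a lysosomal protein of blood cells, gave 38.6% of the summed TPM, at 9.15 ± 1.46 TPM in WT and 11.0 ± 3.98 TPM in *Ltf*-KO SCs (SD, n = 3 each). *Cd14*, a co-receptor for lipopolysaccharide, was at 7.31 ± 0.641 and 7.28 ± 0.959 TPM, and *Cd68*, a lysosomal protein, at 3.71 ± 0.237 and 3.35 ± 0.207 TPM (SD, n = 3 each). *Cd68* was the 1 gene of the 4 that did not overlap between genotypes, against 8.46% of all genes tested. It was at 3.56 to 3.98 TPM in WT and 3.12 to 3.52 TPM in *Ltf*-KO SCs, with an unadjusted limma p of 0.276 and an adjusted p of 0.999. These 3 genes were thus present where *Ptprc*, *Adgre1* and *Csf1r* were near 0. *Lyz2*, which encodes lysozyme of macrophages and neutrophils, was at 7.22, 2.31 and 0.38 TPM in WT and at 1.11, 0.95 and 0.38 TPM in *Ltf*-KO SCs. It was the highest in WT replicate 1, as were *Ptprc*, *Adgre1*, *Csf1r*, *Itgam*, *C1qa*, *C1qc*, *Tyrobp*, *Cd52* and *Ctss*, of which the last 5 are named after their values were seen. WT replicate 1 was the highest library for 9 of the 18 genes of the list above 0 and under 1 TPM, against 14.0% of all genes at that level. These 18 include *Ptprc*, *Adgre1* and *Csf1r*, and without them the count was 6 of 15. Of the 4 genes over the filter, *Lyz2* alone was highest in that library, and WT replicate 3 was the highest WT library for the other 3. *Fcer1g*, a signalling chain of Fc receptors, was the next most abundant and lay between 0.14 and 0.93 TPM. The log2 difference was above 0 for 1 of the 4 tested genes, with a median of -0.06, and 0 of the 4 had an unadjusted p under 0.05. The list summed to 32.6, 23.3 and 25.4 TPM in WT SCs and to 24.8, 31.4 and 19.1 TPM in *Ltf*-KO SCs.

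Most other blood cell genes stayed under 1 TPM in every library. The neutrophil list of 11 genes had 1 gene over the filter, *S100a9*, at 1.15, 0.24 and 1.84 TPM in WT and 0.46, 2.08 and 1.67 TPM in *Ltf*-KO SCs. *S100a8*, whose product pairs with that of *S100a9*, was at 0 to 1.54 TPM, and *Retnlg*, *Ngp* and *Lcn2*, which encode granule and secreted proteins of neutrophils, were at 0.58 TPM or less in every library. The list summed to 1.16 to 3.62 TPM in WT and 1.09 to 4.13 TPM in *Ltf*-KO SCs. Of the 12 lymphocyte genes, 12 stayed under 1 TPM throughout, and *Cd3g*, *Cd8a* and *Klrb1c* were at 0 in all libraries. *Trac*, the constant region of the T cell receptor α chain, reached 0.98 TPM in WT replicate 3, while *Cd79a*, *Cd3e*, *Cd79b* and *Ms4a1*, genes of the B cell and T cell receptor complexes and the B cell surface, reached 0.28 TPM at most. Fibroblast genes summed to 4.41 to 8.62 TPM in WT and 5.57 to 11.1 TPM in *Ltf*-KO SCs over 6 genes, and genes of pericytes and smooth muscle to 7.68 to 10.7 and 9.97 to 11.9 TPM over 6 genes. In the fibroblast list *Dcn*, a small proteoglycan of the matrix, gave 54.3% of the sum, and in the mural list *Notch3* gave 79.1%. *Rgs5*, a pericyte gene named after its values were seen, was at 0.12 to 0.18 TPM in WT and 0.23 to 0.46 TPM in *Ltf*-KO SCs, under the filter. Its genotypes did not overlap, while those of the other mural genes above 0 did. Among all genes tested 8.46% did not overlap, and the share under the filter was not computed.

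Transcripts of ligands and partners of the marker proteins were abundant in the same libraries. *Vegfa*, the main ligand of VEGFR2, was at 123 ± 9.87 TPM in WT and 124 ± 6.88 TPM in *Ltf*-KO SCs (SD, n = 3 each). *Vegfb* was at 22.3 and 22.4 TPM, *Pgf* at 33.9 and 34.4 TPM and *Vegfc*, the lymphatic ligand, at 18.7 and 20.3 TPM (means, WT and *Ltf*-KO), while *Vegfd* stayed at 0.10 to 0.43 TPM. The VEGF co-receptors *Nrp1* and *Nrp2*, which are not particular to endothelium, were at 19.5 and 19.5 TPM and at 27.9 and 26.5 TPM. *Csf1*, which encodes a ligand of the *Csf1r* product, was at 493 ± 22.3 and 500 ± 42.1 TPM (SD, n = 3 each), and its other ligand gene *Il34* at 19.5 ± 1.39 and 21.2 ± 0.590 TPM. *Csf1r*, at 0.05 to 0.39 TPM, thus stood beside *Csf1* at 452 to 532 TPM. The catenins that bind cadherin tails were high too, with *Ctnnb1* at 440 and 436 TPM, *Ctnnd1* at 79.7 and 83.5 TPM and *Jup* at 62.8 and 70.1 TPM (means). They also bind the M-cadherin of myoblasts, whose gene *Cdh15* was at 80.5 and 83.2 TPM. Of the relatives of *Sox10*, *Sox9* was more abundant, at 20.09 to 22.01 TPM in WT and 21.9 to 23.0 TPM in *Ltf*-KO SCs, and *Sox8* was at means of 5.57 and 5.67 TPM. *Egfl8*, the paralog of *Egfl7*, was at 1.78, 1.51 and 1.68 TPM in WT and 1.52, 3.62 and 2.70 TPM in *Ltf*-KO SCs, with an unadjusted limma p of 0.128 and an adjusted p of 0.999. Of the 15 genes of this list 14 were tested, and 0 had an unadjusted p under 0.05 in either direction, with a median log2 difference of 0.02. *Ctnnd1* was the 1 gene of the 14 that did not overlap between genotypes, against 8.46% of all genes tested. It had an unadjusted limma p of 0.104 and an adjusted p of 0.999.

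In the KEGG annotation of the table, 5 of the 8 marker genes had a pathway. The counts below are at an unadjusted limma p under 0.05, where 2.01% of all genes tested were higher and 1.78% lower in *Ltf*-KO SCs. The cell adhesion molecule pathway listed *Pecam1*, *Cdh5* and *Ptprc*. Of its 161 genes 55 were tested, and 3 were higher and 0 lower in *Ltf*-KO SCs. The pathway of fluid shear stress and atherosclerosis listed *Pecam1*, *Cdh5* and *Kdr*, and had 2 higher and 1 lower of 114 tested. Leukocyte transendothelial migration, with *Pecam1* and *Cdh5*, had 0 higher and 0 lower of 69 tested. *Kdr* and *Csf1r* shared 4 signalling pathways. The MAPK pathway had 7 higher and 2 lower of 217 tested, the Ras pathway 6 higher and 2 lower of 144, the Rap1 pathway 5 higher and 0 lower of 144, and the PI3K-Akt pathway 10 higher and 4 lower of 218. These pathways overlap in their genes, and the counts were not tested. None of the genes in these pathways passed at the adjusted threshold.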

How the data were processed

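RNA sequencing of SCs after 4 days of growth gave 3 WT and 3 *Ltf*-KO libraries, grouped by the sample labels. The authors deposited TPM values of 55416 genes, extracted and normalized by the sequencing company's protocol. The aligner and counting tool are not given in the sources used here, and TPM was read as the unit because every library sums to about the same total. The submitters' processing notes name GRCm39. Strand, overlaps and chromosomes were read from GENCODE M21 on GRCm38 by gene identifier, and sequences from RefSeq tables on GRCm38.p6, so no coordinate of the deposited values is given. TPM keeps no depth, and precision was judged from the spread between libraries.

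limma 3.58.1 in R 4.3.3 (lmFit, and eBayes with a trend) was run on log2(TPM + 1), two-sided, for the 12956 genes (23.4%) whose mean reached 1 TPM, with Benjamini-Hochberg adjustment over all of them and a threshold of 0.05. Marker genes under that filter were compared by an exact permutation test (Python 3.11.15). Lists were described by counts, medians and sums, with no test, and 1 gene is not reported here. The fit was tested on simulated data with changes planted only in genes at a mean of 10 TPM or more, so that test did not cover the level of the marker genes. The marker genes and lists were chosen with earlier results of these data known. Genes named were the 8 marker genes, the 5 most abundant genes of each wider list and any at an unadjusted p under 0.05, all partners and gate genes, the 3 genes most correlated with each tested marker gene, and *Ltf*. Of the SC genes, *Pax7*, *Myod1*, *Myog* and *Cdh15* were given in the text, and *Myf5*, *Des*, *Vcam1*, *Sdc4*, *Met* and *Cxcr4* were only plotted. Other names (*Lyve1*, genes that overlap a marker gene, genes at 0 throughout, genes highest in WT replicate 1, *Dcn*, *Notch3*, *Mag* and *Rgs5*) were added after seeing the values. Alternatives were a pseudocount of 0.1, no filter, a filter at 10 TPM, quantile normalization, median-of-ratios scaling, a replicate block, no trend, and each library left out, the last for genes under the filter chosen after seeing the data.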

Additional observations from a re-analysis of the deposited data

How the results depend on the processing

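The log2 difference of *Egfl7* stayed above 0 in all 12 alternatives that could be run (0.50 to 0.83, unadjusted limma p 0.00836 to 0.0701, adjusted p 0.946 or more), and 0 marker genes passed the adjusted threshold in any. A filter at 10 TPM left no marker gene to fit. With 1 library left out, *Pecam1* ranged from -0.14 to 0.30, *Cdh5* from 0.02 to 0.57, *Kdr* from -0.12 to 0.02 and *Sox10* from -0.14 to 0.33 on the log2 scale. *Pecam1* turned to -0.11 without *Ltf*-KO replicate 2, to -0.14 without WT replicate 2 and to -0.0089 without WT replicate 1. Leaving out WT replicate 1 turned *Sox10* to -0.14 and leaving out *Ltf*-KO replicate 2 to -0.04, and *Kdr* to 0.018 without WT replicate 3. The cause was not tested. Marker genes at an unadjusted p under 0.05 numbered 0 to 1. The differences in mean TPM ranged from -0.0267 to 0.0133 for *Adgre1*, -0.138 to 0.0317 for *Csf1r* and -0.0683 to -0.0083 for *Ptprc*.

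Over all genes, 0 passed the adjusted limma threshold and 490 the unadjusted one (260 higher and 230 lower in *Ltf*-KO SCs). Leaving out 1 library gave 0 to 6 adjusted calls, of which 6 came without WT replicate 2, 1 without WT replicate 3, and 5, 2 and 4 when *Ltf*-KO replicates 1, 2 and 3 were left out, and 456 to 611 unadjusted. Without a filter 890 genes passed the unadjusted threshold, and with a filter at 10 TPM 281, as more or fewer genes were tested. Quantile normalization gave 203 higher and 305 lower, and median-of-ratios scaling 213 and 289, which turns the balance of directions. Under a replicate block 380 genes passed the unadjusted and 0 the adjusted threshold. The labels do not say whether the replicate numbers pair libraries. After the genotype mean of each gene was subtracted from log2(TPM + 1), same-numbered libraries had correlations of -0.04, -0.06 and -0.09.

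The *Ltf*-KO to WT ratio of summed TPM, with 1 library left out, ran from 0.983 to 1.45 for the endothelial, 0.809 to 1.04 for the macrophage and leukocyte, 0.542 to 1.09 for the neutrophil, 0.620 to 1.16 for the lymphocyte, 0.980 to 1.08 for the Schwann, 1.15 to 1.60 for the fibroblast and 1.02 to 1.18 for the mural list. Without *Notch3* the mural ratio moved from 1.12 to 1.38. Reads per gene are unknown, so values under 1 TPM have no stated error.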
